A study of Mus musculus with 9 samples.

Results

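Type I interferon-stimulated genes were followed in RAW264.7, a mouse macrophage cell line established from ascites of a virus-induced tumor. The set held 49 genes, chosen by name from a list of interferon-beta, its receptor subunits and genes that type I interferon is known to induce, and all 49 were matched among the 54532 genes of the deposited table. Of these, 48 reached an expression level of at least 1 FPKM (reads scaled to the gene's length and to the size of the library) in 3 or more of the 9 libraries and entered the tests. The exception was Ifi205, a p200 family gene, which lay between 0 and 0.166 FPKM in all 9 libraries.

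Poly(A)-selected RNA was sequenced from 3 groups of 3 libraries, all from wild-type cells by their labels. The control cells were untreated. The LPS group received lipopolysaccharide, the endotoxin of Gram-negative bacteria, at 1 μg/ml for 6 h. The LPS + G-CDs group received the same LPS dose for 6 h together with 400 μg/ml of G-CDs, carbon nanoparticles made from roasted licorice (Glycyrrhiza) that were tested as a mimic of superoxide dismutase. The treatment label of this last group names LPS alone, and the nanoparticles are known from the library titles and the description of the design. No group received G-CDs without LPS, so their action on resting cells was not measured. The labels do not say whether the 3 libraries of a group came from separate cultures, so every p-value below measures only the spread between these libraries. In RNA from bulk cells, fewer cells making a transcript and less transcript per cell cannot be told apart.

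Reads assigned to genes numbered 14752400 to 17312255 in each library. The summed FPKM was 271284 to 314327 in control and 347815 to 349699 with LPS, but 333125, 382451 and 472870 in LPS + G-CDs replicates 1, 2 and 3, and LPS + G-CDs replicates 2 and 3 and control replicate 3 stood apart by a trend with gene length that is described with the G-CDs comparison. Of 9 macrophage markers, 8 reached 1 FPKM, among them Lyz2, Csf1r, Cd68 and Spi1, and Mertk had no read in any library. None of the 5 B cell, 5 fibroblast and 4 epithelial markers reached 1 FPKM. Of 6 T cell markers only Lck did, while Cd3g and Cd8a had no reads. The summed T cell markers ran from 0.871 to 1.40 FPKM in control, from 3.28 to 3.85 in LPS and from 4.55 to 6.90 in LPS + G-CDs, nearly all of it Lck, and its part in the results was not tested. Of 6 dendritic cell markers, Tcf4 and Bst2 reached 1 FPKM, and Bst2 is itself an interferon-stimulated gene of the set.

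In macrophages, LPS is bound by CD14 and the TLR4-MD-2 complex, and the adaptor TRIF passes the signal to the kinases TBK1 and IKKε, which activate the transcription factor IRF3. IRF3, acting with NF-κB, switches on the interferon-beta gene, and the secreted interferon binds IFNAR1 and IFNAR2 on the same and neighboring cells. The receptor kinases JAK1 and TYK2 then activate a complex that holds STAT2 and IRF9 and binds the interferon-stimulated response element, a pair of GAAA repeats, in the promoters of antiviral genes.

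Promoters from RefSeq (GRCm38.p6, 250 bases before to 50 bases after the transcription start) were matched for 39 of the 49 genes. The letters GAAANNGAA, as bound by IRF proteins, were found on either strand in 19 of the 39, or 48.7%, against 9.76% of all 27025 genes with a promoter of this length. The letters TTCNNNGAA, known as the gamma-activated sequence, were in 8 of 39, or 20.5%, against 9.55%. The letters GGGANNTTC, a kappa B site form bound by NF-κB, were in 4 of 39, or 10.3%, against 4.47%. A match of letters describes the sequence and is not evidence of binding. The sequences that follow are from 4 of the genes described with values per library that hold the IRF letters upstream of the start, and the interferon-beta gene, added as the ligand. Each line gives 100 bases of the gene's own strand, from 140 to 41 bases before the RefSeq start, with the GAAANNGAA matches of either strand in capitals for the first 4 genes and the GGGANNTTC match in capitals for Ifnb1.
Isg15, chr4:156200859-156200958, minus strand: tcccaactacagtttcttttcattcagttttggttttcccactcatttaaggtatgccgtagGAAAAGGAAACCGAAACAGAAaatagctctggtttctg
Ifit1, chr19:34640749-34640848, plus strand: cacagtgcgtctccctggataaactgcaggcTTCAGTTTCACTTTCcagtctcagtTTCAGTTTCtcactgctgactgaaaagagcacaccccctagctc
Rsad2, chr12:26456493-26456592, minus strand: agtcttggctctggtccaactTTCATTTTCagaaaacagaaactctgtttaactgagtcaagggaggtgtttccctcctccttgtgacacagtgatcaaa
Bst2, chr8:71537513-71537612, minus strand: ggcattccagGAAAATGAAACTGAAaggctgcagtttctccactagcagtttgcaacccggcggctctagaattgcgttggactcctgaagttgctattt
Ifnb1, chr4:88522835-88522934, minus strand: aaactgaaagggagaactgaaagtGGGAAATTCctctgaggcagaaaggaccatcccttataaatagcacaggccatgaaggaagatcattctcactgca
Isg15 and Ifit1 each hold 3 matches in the window, Bst2 holds 2 and Rsad2 holds 1. In Isg15, Ifit1 and Bst2 neighboring matches overlap in a run of repeats. The Bst2 run is also overlapped by TTCCAGGAA, a match to the gamma-activated sequence that starts 136 bases before the transcription start.

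The first comparison, LPS against control, shows the response on which the nanoparticles were tested. After 6 h of LPS, 45 of the 48 tested genes rose and 1 fell, by limma with Benjamini-Hochberg adjustment over all 11585 tested genes and an adjusted p below 0.05. Over all tested genes, 15.8% rose and 15.6% fell. The median log2 fold change was 2.69 for the 48 genes and 0.02 for all tested genes, on the scale of log2(FPKM + 1). With the 2 genes that had no control read set at the lower bound of their fold, the median of the 48 was 2.77. All 45 genes that rose had every LPS library above every control library, which held for 27.4% of all tested genes, and Ifnar2 had every LPS library below control, which held for 25.1%. The genes belong to the set because interferon induces them, and 11 of the 48 were under 1 FPKM in every control library and passed the level filter only through the LPS groups, so these counts describe the size of the response and do not test whether the set responds.

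**Figure D1:**
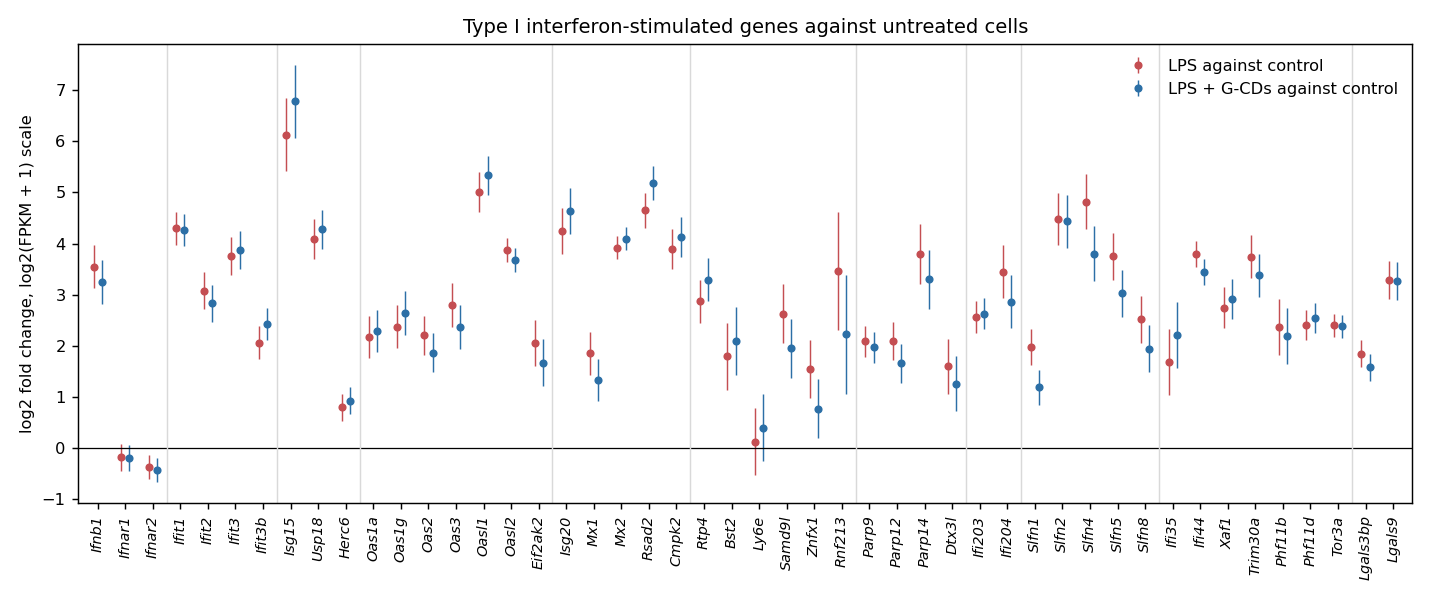
Log2 fold change against control (y axis, on log2(FPKM + 1)) of the 48 tested interferon-stimulated genes after LPS and after LPS + G-CDs (x axis, genes grouped by role). Points are limma estimates from 3 libraries per group and bars are 95% intervals. Nearly all genes lie well above 0 in both treatments, while Ifnar1, Ifnar2 and Ly6e lie near 0.

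The interferon transcript found above 1 FPKM was that of interferon-beta, and interferon protein was not measured. Ifnb1 (chr4:88522025-88522774) had 0 reads in all 3 control libraries, 10.1, 10.1 and 11.8 FPKM in the LPS libraries, and 6.46, 7.87 and 11.9 FPKM in the LPS + G-CDs libraries. The LPS mean was at least 45.5-fold higher than control, taking 3 reads per library as the limit that a count of 0 allows, and the LPS + G-CDs mean was at least 37.2-fold higher. Ifnb1 rose in both comparisons with control (limma adjusted p = 1.68e-06 and 3.44e-06). Against LPS alone it was 0.30 lower on the log2 scale with G-CDs (95% interval -0.73 to 0.12, adjusted p = 0.381), and the ranges of the LPS and LPS + G-CDs libraries overlapped. With 1 library left out this difference ran from -0.52 to -0.13, and it was called in none of 20 alternative settings. Of 21 listed interferon genes of types I, II and III, 17 had no read in any library, and only Ifnb1 reached 1 FPKM. The interferon-alpha genes, interferon-gamma and interferon-lambda were therefore at or near 0 reads at this depth, and these files hold 1 time point.

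The receptor subunits moved little. Ifnar2, the high-affinity subunit, stood at 13.2, 13.8 and 14.4 FPKM in control, 11.2, 9.94 and 10.2 with LPS, and 9.41, 9.66 and 10.9 with LPS + G-CDs. It fell by 0.37 on the log2 scale with LPS (adjusted p = 0.0264) and by 0.43 with LPS + G-CDs against control (adjusted p = 0.016), with no overlap between either treated group and control. The call with LPS was lost in 6 of 20 alternative settings, all of them with 1 library left out (adjusted p up to 0.107). The call with LPS + G-CDs was lost when only the 6 libraries compared were fitted and without LPS + G-CDs replicate 2. Ifnar1 measured 8.24, 9.82 and 9.44 FPKM in control, 7.43, 7.94 and 8.38 with LPS, and 8.51, 7.996 and 7.15 with LPS + G-CDs, and its change with LPS was not called (log2 fold change -0.19, adjusted p = 0.25).

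The largest estimate on the log2(FPKM + 1) scale was that of Isg15, which encodes a ubiquitin-like modifier conjugated to viral and host proteins. Its level was 3.46, 1.32 and 2.75 FPKM in control, 247, 221 and 243 with LPS, and 257, 347 and 578 with LPS + G-CDs. The LPS mean of 237 ± 14.3 FPKM (SD, n = 3) was 94.5-fold the control mean, a log2 fold change of 6.13 ± 0.31 (SE, adjusted p = 1.4e-06). The other genes of the ISG15 system rose too. Usp18, the protease that removes ISG15 and also damps the receptor, went from 5.11 ± 1.14 to 102 ± 4.02 FPKM. Herc6, the ISG15 ligase of the mouse, rose least of the 3, from 0.317 ± 0.029 to 1.28 ± 0.0701 FPKM, and 23.8% of its 50-base words also occur in an overlapping gene model, Gm45193.

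All 4 IFIT genes, whose products bind viral RNA that lacks the host cap methylation, rose with LPS. They lie side by side on chromosome 19, from Ifit2 at 34550694 to the end of Ifit1 at 34650009. Ifit1 was at 0.201, 0.221 and 0.402 FPKM in control and at 23.1, 26.7 and 22.3 with LPS, an 87.5-fold difference in mean, and at 26.4, 24.4 and 19.8 with LPS + G-CDs. Ifit2 went from 1.42 ± 0.281 to 19.4 ± 0.303 FPKM and Ifit3 from 0.412 ± 0.248 to 17.8 ± 1.32. Ifit3b had 1, 0 and 2 reads in the control libraries and 93, 90 and 93 with LPS. Ifit3 and Ifit3b share 51.2% and 45% of their 50-base words, so reads of one may be counted for the other.

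Among the effectors that act on nucleotides and viral RNA, Rsad2 encodes viperin, which makes a chain-terminating nucleotide, and Cmpk2 is its neighbor on chromosome 12 and supplies its substrate. Rsad2 stood at 0.221, 0.312 and 0.104 FPKM in control, 29.0, 31.5 and 27.8 with LPS, and 52.4, 42.1 and 35.9 with LPS + G-CDs. Its mean with LPS was 139-fold the control mean, on 8 to 23 control reads per library (log2 fold change 4.65 ± 0.15, adjusted p = 7.02e-08), a larger ratio of means than that of Isg15. With voom on reads, the log2 fold change of Rsad2 was 7.22 and that of Isg15 was 6.63, while that of Ifnb1, which had no control read, was 8.17. Slfn1, also without a control read, reached up to 7.61 over the alternative settings. Cmpk2 went from 1.15 ± 0.411 to 30.7 ± 0.947 FPKM. The RNA exonuclease gene Isg20 went from 0.62 ± 0.11 to 29.6 ± 1.49 FPKM. The GTPase gene Mx2 went from 0.615 ± 0.0884 to 23.4 ± 0.933 FPKM, while its neighbor Mx1, with 1 control read in all, reached 2.67 ± 0.733 FPKM. All 5 of these genes rose.

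The sensors and enzymes of double-stranded RNA all rose, 7 of 7. Oasl1, an oligoadenylate synthetase-like protein that lacks enzyme activity and limits IRF7 translation, had the highest mean over the 9 libraries, with 10.5, 7.45 and 11.7 FPKM in control, 351, 338 and 345 with LPS, and 395, 423 and 482 with LPS + G-CDs. Its log2 fold change with LPS was 5.01 ± 0.17 (adjusted p = 9.25e-08). Among the synthetases that activate RNase L, Oas1a went from 25.8 ± 3.79 to 119 ± 3.51 FPKM, Oas2 from 10.6 ± 0.406 to 52.5 ± 1.44, and Oas3 from 11.6 ± 0.777 to 86.4 ± 1.95. Their log2 fold changes, 2.16, 2.20 and 2.80, were below that of Oasl1. Oas1a and Oas1g share 57.6% and 54.7% of their 50-base words with other genes, chiefly each other, so their split is uncertain. Oasl2 went from 0.53 ± 0.0346 to 21.6 ± 1.26 FPKM. Eif2ak2, the kinase PKR that halts translation, went from 11.9 ± 1.41 to 52.2 ± 2.38 FPKM.

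The Schlafen genes, regulators of immune cell quiescence and of RNA that sit together on chromosome 11 between 82951349 and 83190216, all rose as well, 5 of 5. Slfn2 was at 19.2, 13.1 and 18.97 FPKM in control, 393, 395 and 407 with LPS, and 296, 367 and 527 with LPS + G-CDs. Slfn4 was at 12.1, 9.47 and 6.86 FPKM in control, 274, 308 and 284 with LPS, and 180, 153 and 104 with LPS + G-CDs. Its log2 fold change with LPS was 4.82 ± 0.24 (adjusted p = 1.08e-06). Slfn1 had no read in control, 3.61, 2.56 and 2.66 FPKM with LPS, and 1.11, 1.10 and 1.64 with LPS + G-CDs. The LPS mean of Slfn1 was at least 31.1-fold higher than control, and the LPS + G-CDs mean at least 13.6-fold higher.

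Of the p200 genes, which encode DNA-binding proteins on chromosome 1, Ifi204 had the highest mean over the 9 libraries, at 0.24, 1.14 and 1.47 FPKM in control, 18.5, 19.8 and 19.97 with LPS, and 11.5, 13.3 and 13.0 with LPS + G-CDs. It rose by 3.45 ± 0.23 on the log2 scale with LPS (adjusted p = 6.81e-06), and 30.2% of its words recur in other genes, chiefly Ifi211. Ifi203 went from 1.45 ± 0.337 to 13.4 ± 1.40 FPKM. All 4 genes of ADP-ribosylation, Parp9 with its partner Dtx3l, Parp12 and Parp14, rose with log2 fold changes between 1.60 and 3.80. Parp12 was at 18.1, 16.1 and 13.7 FPKM in control, 69.8, 72.7 and 70.4 with LPS, and 62.1, 55.9 and 41.2 with LPS + G-CDs. Parp9 and Dtx3l overlap each other on chromosome 16, and the sources used here do not say whether strand was used in counting.

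The remaining genes rose with one exception. Bst2, or tetherin, which holds budding virus on the cell surface, had the highest base level among those that rose, with 116, 107 and 156 FPKM in control, 449, 391 and 466 with LPS, and 356, 520 and 822 with LPS + G-CDs. Ly6e, a GPI-anchored surface protein, was expressed in all libraries, at 123, 180 and 271 FPKM in control, 194, 202 and 198 with LPS, and 187, 229 and 319 with LPS + G-CDs. Its control libraries spread across the range of the LPS libraries, and no change was called (log2 fold change 0.12, 95% interval -0.54 to 0.78, adjusted p = 0.784), with a sign that turned under TPM and quantile scaling. Rnf213, a giant ubiquitin ligase of 16888 bases of gene length, was at 21.1, 15.5 and 6.30 FPKM in control, 162, 155 and 137 with LPS, and 136, 52.8 and 35.4 with LPS + G-CDs. Its libraries with G-CDs were spread widely, yet the lowest of them lay above all control libraries. Lgals3bp, a secreted galectin-binding glycoprotein, was at 36.8, 33.4 and 41.0 FPKM in control, 135, 133 and 138 with LPS, and 110, 112 and 114 with LPS + G-CDs. Ifi44 was at 4.59, 5.04 and 4.62 FPKM in control, 74.2, 82.3 and 80.1 with LPS, and 64.6, 64.7 and 55.8 with LPS + G-CDs. Ifi35 was at 10.5, 8.67 and 14.9 FPKM in control, 36.9, 35.2 and 41.0 with LPS, and 37.8, 51.9 and 85.3 with LPS + G-CDs. In all of these genes but Ly6e, each LPS library lay above each control library. The others that rose, Rtp4, Samd9l, Znfx1, Xaf1, Trim30a, Phf11b, Phf11d, Tor3a and Lgals9, had log2 fold changes between 1.55 and 3.74.

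The genes that carry the signal from LPS to interferon and from interferon to the promoters were followed as a list of 24, all tested. With LPS 14 of them rose and 1 fell, against 15.8% and 15.6% of all tested genes. The rises included Irf7, the factor that amplifies interferon production, from 4.09 ± 1.05 to 94.6 ± 4.98 FPKM, and Ikbke, which encodes IKKε, from 3.79 ± 0.086 to 43.2 ± 0.953. Stat2 and Irf9, whose products act at the response element, rose by 2.04 and 1.52 on the log2 scale. Socs3, an inhibitor of cytokine receptor signaling, had the largest change of the list, with a log2 fold change of 5.34. The gene that fell was Tlr4, the LPS receptor itself (log2 fold change -0.81, adjusted p = 0.0241). Jak1, Tyk2, Irf3, Irf1 and Traf3 were among the 9 that were not called.

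**Figure D2:**
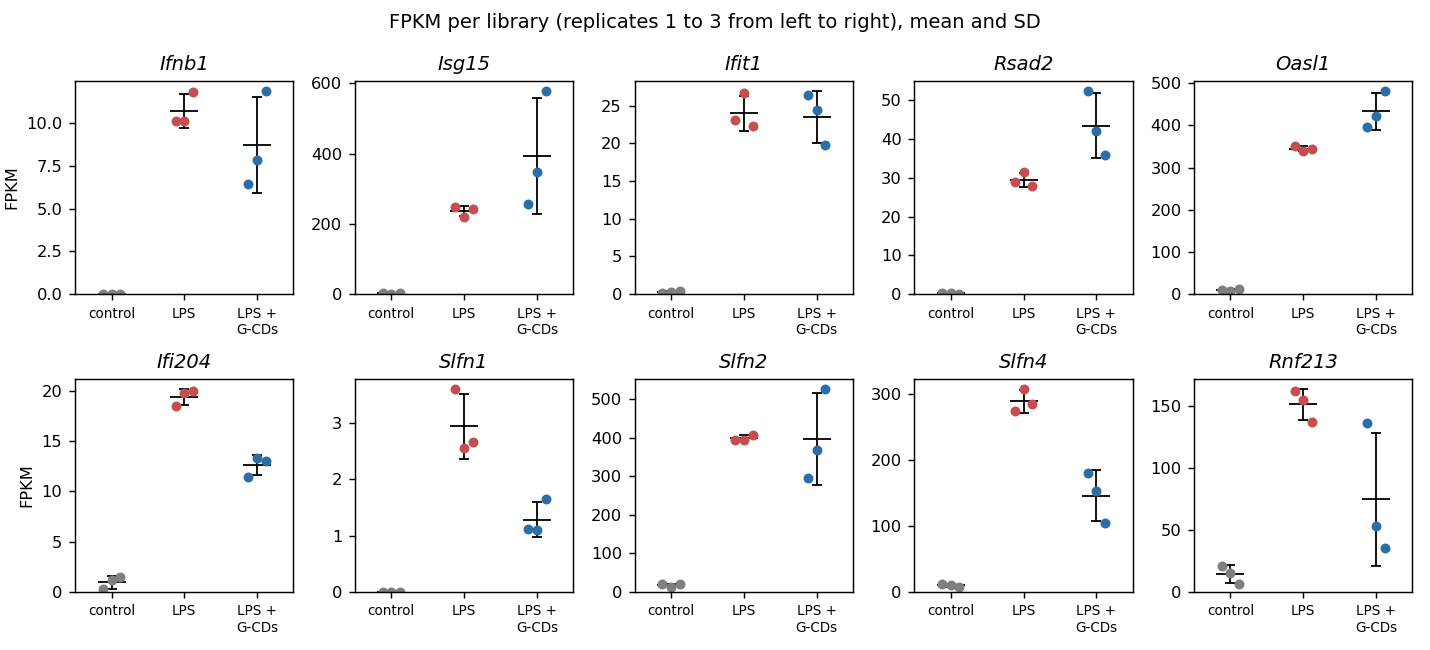
Expression level in FPKM (y axis, one panel per gene with its own scale) of 10 interferon-stimulated genes in each of the 9 libraries. Points are libraries, and horizontal marks and bars are the mean and SD of 3 libraries per group. The LPS libraries lie close together, while the LPS + G-CDs libraries are spread apart for Isg15, Slfn2 and Rnf213.

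The comparison for which the study was made, LPS + G-CDs against LPS, asked whether the nanoparticles changed the response. No gene of the set was called by limma with Benjamini-Hochberg adjustment, 0 of 48, against 0.492% of all tested genes, 0.25% higher and 0.242% lower. At an unadjusted p below 0.05, 3 genes were higher and 12 were lower with G-CDs, against 7.19% and 8.04% of all tested genes. A count-based fit of the recovered reads (voom) also called 0, against 0.388% of all tested genes, with 15 genes at an unadjusted p below 0.05. With 1 library left out, 6 to 24 genes of the set were below that p. The share of all tested genes below it was not computed for voom or with a library left out. The median log2 difference was -0.06 for the 48 genes, of which 29 lay below 0 and 19 above, and 0.02 for all tested genes. The spread around that median was wide, from -1.24 for Rnf213 to 0.65 for Isg15.

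On the lower side were 4 of the 5 Schlafen genes. All 3 LPS + G-CDs libraries lay below all 3 LPS libraries for Slfn1, Slfn4, Slfn5 and Slfn8, a pattern seen in 15.0% of all tested genes, and these genes were singled out after their values were seen. The mean of Slfn4 with G-CDs was 0.504 times the LPS mean, a log2 difference of -1.02 (95% interval -1.56 to -0.48, adjusted p = 0.15). The mean of Slfn1 was 0.436 times the LPS mean, on 30 to 43 reads per library against 66 to 93 (log2 difference -0.79, 95% interval -1.14 to -0.44, adjusted p = 0.0901). Slfn5 went from 33.7 ± 1.19 to 20.7 ± 7.05 FPKM and Slfn8 from 26.1 ± 1.46 to 17.5 ± 4.32. Slfn2, the shortest and most abundant of the 5, had a mean of 397 ± 118 FPKM against 398 ± 8.04 and its range of 296 to 527 enclosed that of LPS. Without LPS + G-CDs replicate 3, the difference was -0.80 for Slfn4 and -0.90 for Slfn1. Slfn4 shares 11.6% of its words with other genes, chiefly Slfn3, and Slfn1 shares 0.61%.

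Ifi204 and Lgals3bp were lower by amounts that differed little between libraries. For Ifi204 the 3 libraries with G-CDs, at 11.5 to 13.3 FPKM, lay below the 18.5 to 19.97 of LPS alone (log2 difference -0.59, 95% interval -1.10 to -0.08, adjusted p = 0.313). For Lgals3bp they lay at 110 to 114 against 133 to 138 (log2 difference -0.27, 95% interval -0.53 to -0.01, adjusted p = 0.324). Ifi44 had a log2 difference of -0.35 (adjusted p = 0.255) and Parp12 one of -0.43 (adjusted p = 0.314). Rnf213 had the lowest estimate, -1.24, with an interval from -2.39 to -0.08 (adjusted p = 0.32), since its 3 libraries with G-CDs ranged from 35.4 to 136 FPKM, and it was -0.83 without replicate 3 and -1.78 without replicate 1. Without replicate 3, Ifi204 was at -0.61, Lgals3bp at -0.28 and Parp12 at -0.27.

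On the higher side, every library with G-CDs lay above every LPS library for Isg15, Rsad2, Oasl1, Mx2, Rtp4, Herc6 and Ifit3b. Rsad2 was 1.48 times the LPS mean (log2 difference 0.53, 95% interval 0.19 to 0.87, adjusted p = 0.212). Isg15 was 1.66 times the LPS mean, but its libraries with G-CDs ran from 257, just above the highest LPS library at 247, to 578 (log2 difference 0.65, 95% interval -0.06 to 1.37, adjusted p = 0.329). Ifi35 had a log2 difference of 0.54 (95% interval -0.11 to 1.19, adjusted p = 0.342) with overlapping groups. Oasl1 had a log2 difference of 0.32 (95% interval -0.06 to 0.71, adjusted p = 0.34), which was as low as 0.06 over the alternative settings. Without LPS + G-CDs replicate 3, the difference was 0.34 for Isg15, 0.23 for Ifi35, 0.25 for Oasl1 and 0.66 for Rsad2. Ifit1 (-0.04, 95% interval -0.35 to 0.28) and Bst2 (0.30, 95% interval -0.36 to 0.96) had log2 differences whose intervals spanned 0.

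Counted over the set, 7 of 48 genes, or 14.6%, had all G-CDs libraries above LPS, against 12.9% of all tested genes, and 14 of 48, or 29.2%, had all below, against 15.0%. The 14 were Slfn1, Slfn4, Slfn5, Slfn8, Ifi204, Ifi44, Lgals3bp, Oas3, Oasl2, Parp12, Rnf213, Samd9l, Trim30a and Znfx1.

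**Figure D3:**
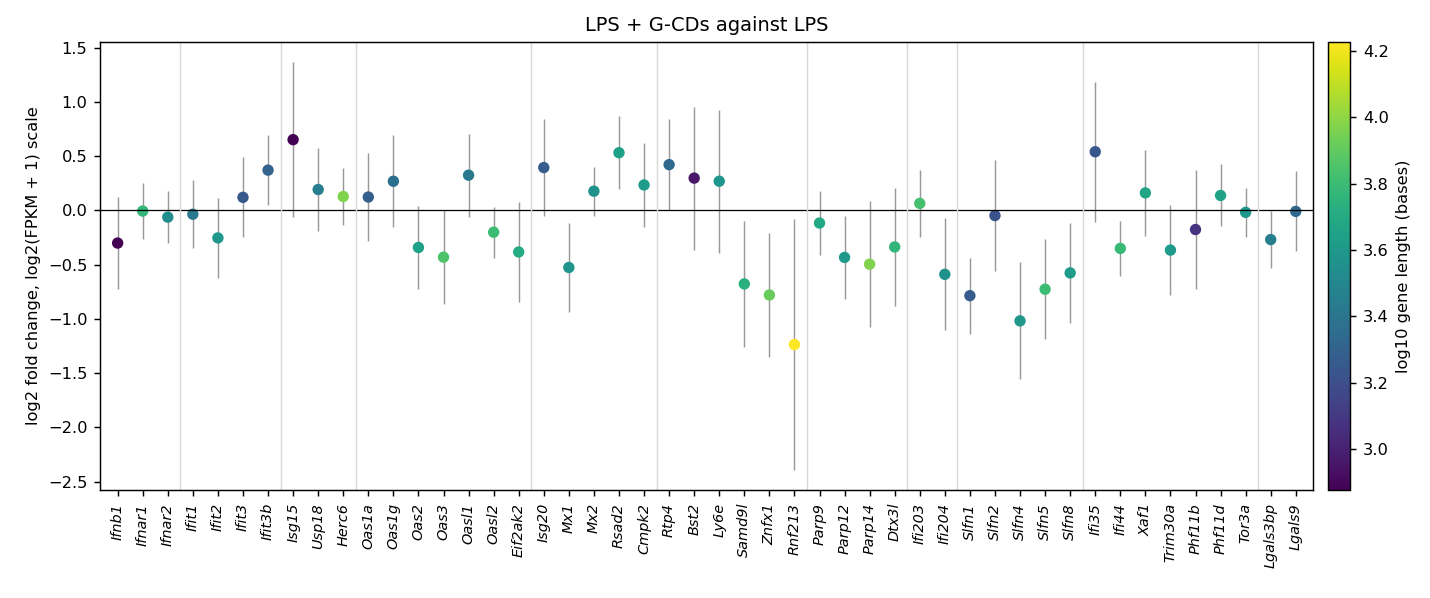
Log2 difference of LPS + G-CDs from LPS (y axis, on log2(FPKM + 1)) for the 48 tested interferon-stimulated genes (x axis, grouped by role), with 95% intervals from limma and points colored by the log10 of gene length in bases. No gene was called, and many of the long genes, such as Rnf213 (-1.24), lie below 0 and many of the short genes, such as Isg15 (0.65), above.

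The length of the genes moved with this comparison. The 48 genes were divided at 3909.5 bases into 24 shorter and 24 longer genes. In LPS + G-CDs replicate 3, the median distance from the LPS mean was 0.38 on the log2 scale for the shorter genes and -0.73 for the longer ones. In replicate 2 these medians were 0.06 and -0.31, and in replicate 1 they were -0.08 and 0.01. The same pattern was present over the whole table, where the 6002 genes below and 5583 genes above that length had medians of 0.36 and -0.27 in replicate 3, 0.17 and -0.12 in replicate 2, and -0.03 and -0.01 in replicate 1. The trend was not particular to cells given G-CDs, since over all genes untreated control replicate 3 had medians of 0.22 and -0.19 from the LPS mean, while control replicates 1 and 2 lay between -0.03 and -0.001. Without control replicate 3, 45 genes of the set rose with LPS and 0 fell. Between LPS + G-CDs replicates 3 and 1, Rnf213 differed by -1.91 and Samd9l by -1.17, while Isg15 differed by 1.17 and Bst2 by 1.21. Of the 14 genes with all G-CDs libraries below LPS, 11 were among the longer genes, and of the 7 with all above, 5 were among the shorter. Slfn1, Ifi204 and Lgals3bp were the 3 shorter genes among the 14.

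**Figure D4:**
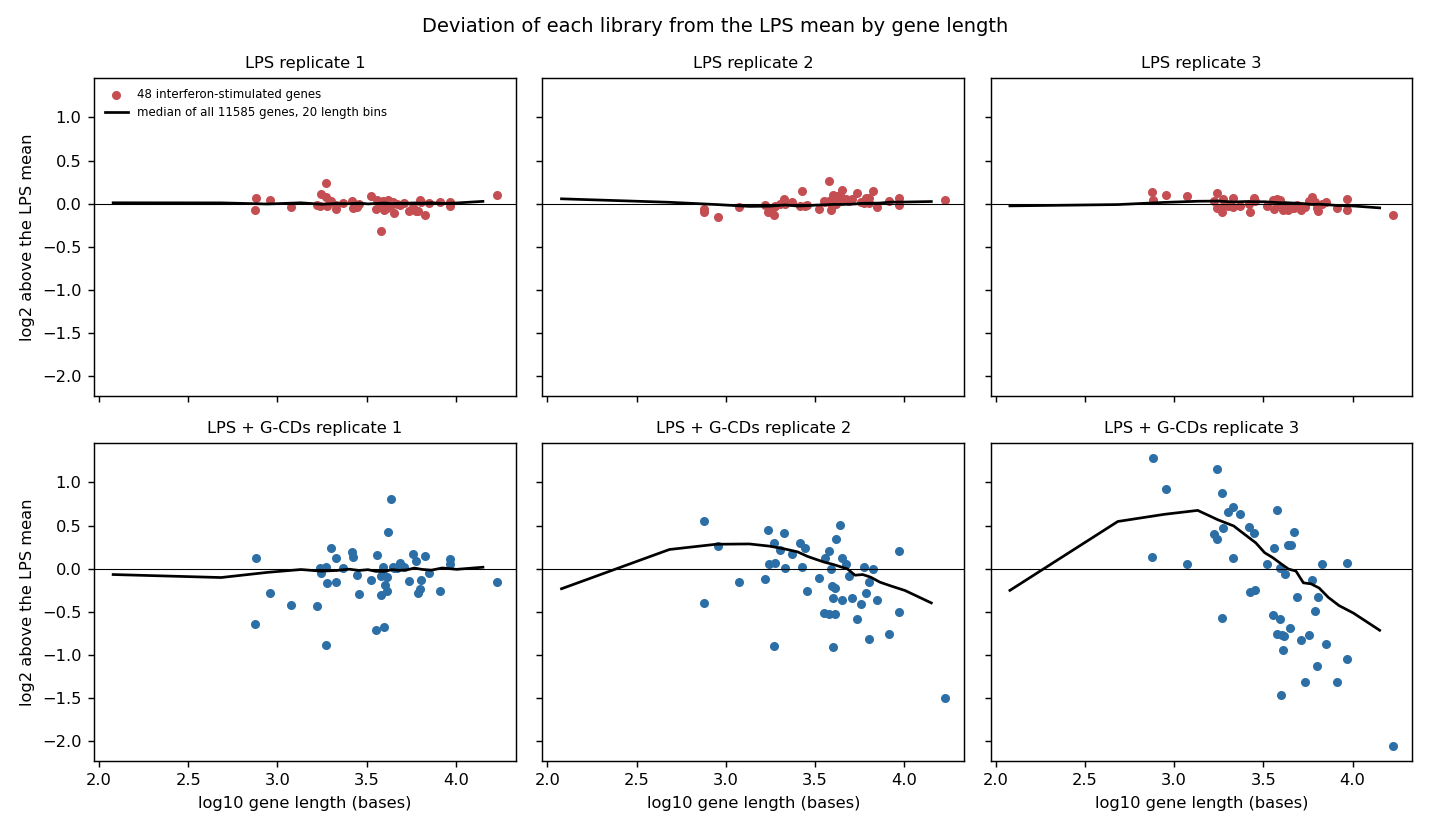
Difference of each LPS and LPS + G-CDs library from the mean of the LPS libraries (y axis, log2) against the log10 of gene length in bases (x axis), one panel per library. Points are interferon-stimulated genes and the line is the median of all tested genes in 20 bins of length. Over the lengths of most of these genes, the line slopes down in LPS + G-CDs replicates 2 and 3 and is nearly level in replicate 1 and in the LPS libraries.

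When the length trend of each library was removed before the fit, 1 gene of the set was called, Slfn1, with a log2 difference of -1.02 (adjusted p = 0.0247), against 89 of 11585 tested genes, or 0.768%. The counts without overlap were then 6 of 48 higher, or 12.5%, against 13.1% of all tested genes, and 19 lower, or 39.6%, against 15.9%, with 10 of the 19 among the longer genes and 9 among the shorter. The genes that joined the lower list were Oas1a, Slfn2, Phf11b, Lgals9, Ifnb1 and Ifnar2, while Oasl2 left it and Ifit3b left the higher list. With Slfn2, every Schlafen gene of the set was then lower without overlap. The counts without overlap under this correction were chosen after seeing the data. Leaving out LPS + G-CDs replicate 1 in place of this correction called 3 of the 48 genes lower, Slfn4, Slfn5 and Znfx1, while the calls over all tested genes went from 57 of 11585 to 276 of 11484, or 2.4%. What part of each difference goes with the length trend and what part with the nanoparticles was not tested gene by gene.

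In the signaling list none of the 24 genes was called between LPS + G-CDs and LPS by limma or by voom, and 5 had an unadjusted p below 0.05 with limma, against 15.2% of all tested genes. Of those, Ikbke (log2 difference -0.46, adjusted p = 0.138), Irf8 (-0.44, adjusted p = 0.18) and Tank, a scaffold of the TBK1 complex (-0.46, adjusted p = 0.317), were lower with G-CDs. Irf3 (0.55, adjusted p = 0.273) and Irf1 (0.45, adjusted p = 0.261) were higher. Irf7 measured 94.6 ± 4.98 FPKM with LPS and 105 ± 24.4 with LPS + G-CDs.

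The last comparison set LPS + G-CDs against control, and it shares libraries with both others. Of the 48 genes, 44 rose and 1, Ifnar2, fell, against 12.8% and 12.4% of all tested genes, and the median log2 fold change was 2.58, or 2.63 with the 2 genes without control reads at their bound. The genes not called were Ifnar1, Ly6e and Znfx1, the last an RNA helicase that senses viral RNA, at 11.7 ± 2.42 FPKM in control and 21.3 ± 7.96 with LPS + G-CDs (log2 fold change 0.77, adjusted p = 0.0542). Znfx1 was called higher with a replicate block (adjusted p = 0.0181), with the length trend removed (0.00352), with the filter at 5 FPKM (0.049) and without LPS + G-CDs replicate 3 (0.00707). Isg15 stood 6.79 above control on the log2 scale with LPS + G-CDs and 6.13 with LPS. Rsad2 stood 5.18 and 4.65 above control, Slfn4 stood 3.80 and 4.82, and Rnf213 stood 2.22 and 3.46. In the signaling list 15 of 24 genes rose and 1 fell with LPS + G-CDs against control, beside the same shares of 12.8% and 12.4%. The gene that fell was Ticam2 (log2 fold change -0.65, limma adjusted p = 0.0409), while Tlr4 was not called here (-0.56, adjusted p = 0.103).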

How the data were processed

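The authors deposited 1 table of FPKM values for the 9 libraries, sequenced on the Illumina platform from poly(A) RNA, with GRCm38 gene coordinates. The aligner, counter and strand setting are not given in the sources used here. No column of other samples was present (0). FPKM times gene length times a library size inferred from the low values gave whole reads for 100% of values (within 0.05 reads). That size was 1.108 to 1.14 times the reads on genes in control, 0.929 to 0.936 times with LPS and 0.88 to 0.98 times with LPS + G-CDs, so the FPKM scaling differed by group, and median-of-ratios scaling and voom were tried as alternatives to it. The reads were used for depth, for limits at 0 (3 reads per library, counting error only) and in voom. The tests used limma 3.58.1 in R 4.3.3 on log2(FPKM + 1) of genes at 1 FPKM or more in at least 3 libraries (lmFit, eBayes with trend, all 9 libraries in 1 fit, two-sided, Benjamini-Hochberg adjustment, adjusted p below 0.05). This scale understates changes of low genes. Fits were tested on simulated data. Medians and counts over the set carry no test. Sequence sharing was the share of 50-base words of the longest transcript (GENCODE, GRCm38) found in other genes. The interferon genes, their roles and the other lists were chosen with earlier results of these data known. Values per library are given for the ligand and receptor genes, the 3 largest rises and the 3 lowest changes in each of the first 2 comparisons, any member called between LPS + G-CDs and LPS, and the gene of each role with the highest mean over the 9 libraries. Other genes named with values, such as Ifit3b and Znfx1, were chosen after their values were seen.

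Replicate numbers in the titles were checked for pairing by correlating deviations from the group means. Same-numbered control and LPS libraries correlated at 0.103, 0.137 and 0.113, just past the rule of r over 0.1, and differently numbered ones at -0.127 to -0.014. Correlations this low do not establish pairing. The main fit was unpaired, and a replicate block was tried as an alternative. For LPS and LPS + G-CDs the values were 0.095, 0.08 and 0.143, and for control and LPS + G-CDs 0.28, 0.057 and 0.653, so these were not taken as pairs. Differently numbered control and LPS + G-CDs libraries ran from -0.671 to 0.504.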

Additional observations from a re-analysis of the deposited data

How the results depend on the processing

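The counts called, the medians of the set, the calls of the signaling list and, for 18 named genes in the first 2 comparisons, the single values were recomputed under 20 alternatives: a pseudocount of 0.1, no filter, a filter at 5 FPKM (which Slfn1 did not pass), TPM, median-of-ratios and quantile scaling, eBayes without trend, only the 6 libraries compared, voom on reads, a replicate block, removal of the gene length trend, and each of the 9 libraries left out. Of 718 recomputed values of single genes, 698 kept their direction and their side of the threshold, 12 turned sign, 6 lost a call and 2 gained one.

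With LPS against control the median of the set was 3.43 with a pseudocount of 0.1, 2.84 with the filter at 5 FPKM, 3.01 with TPM and 3.49 with voom. With LPS + G-CDs against control it was 3.43, 2.73, 2.46 and 3.47 in the same order, and 2.47 with quantile scaling. With LPS + G-CDs against LPS it was -0.22 with TPM and -0.18 with the length trend removed. The median of all genes under TPM was -0.23, -0.38 and -0.14 in these 3 comparisons, against 0.02 in each on the FPKM scale.

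With 1 library left out, the genes called numbered 45 to 46 for LPS against control, 44 to 46 for LPS + G-CDs against control, and 0 to 3 for LPS + G-CDs against LPS, where the 3 came without LPS + G-CDs replicate 1 (Slfn4 with an adjusted p of 0.049), a setting that called 276 of all 11484 tested genes against 57 of 11585 with all libraries. In that comparison, leaving out 1 LPS library called 10 to 13 of all tested genes, and leaving out LPS + G-CDs replicate 2 called 11. Removing the length trend gave 1 call of the set there, and 89 over all genes. The medians ran from 2.64 to 2.71, 2.51 to 2.66 and -0.09 to -0.05 in the same order. The signaling list gave 14 to 16, 14 to 16 and 0 calls.

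With a replicate block, 45 genes of the set rose and 1 fell with LPS. The block called 0 genes of the set for LPS + G-CDs against LPS, against 0.457% of all tested genes. With the block 19 had an unadjusted p below 0.05, for which the share of all tested genes was not computed. For LPS + G-CDs against control the block called 45 higher, adding Znfx1, and 1 lower. It changed no other call of the set. TPM lost the call of Dtx3l and called Ifnar1 lower in that comparison. Counts without overlap were recomputed with the length trend removed only.

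Signs turned for genes near 0. Ly6e with LPS was -0.15 with TPM and -0.13 with quantile scaling, and ran from -0.16 to 0.41 with 1 library left out. With LPS + G-CDs against LPS, Ifnar1 was 0.023 with quantile scaling and 0.082 with the length trend removed, and Bst2 was -0.003 with quantile scaling. With 1 library left out, Ifnar1 ran from -0.057 to 0.054, Ifit1 from -0.121 to 0.08, Slfn2 from -0.273 to 0.142 and Bst2 from -0.013 to 0.59. The cause was not tested. Low depth limits Slfn1, Ifit3b, Mx1 and Ifnb1, whose libraries held few reads, and 3 libraries per group limit every interval.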
